A study of Mus musculus with 12 samples.

Results

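The comparison described here is that of Chd8 KO neural progenitor cells (NPC) with wild-type (WT) NPC, by RNA-seq of mouse cells. Its members were found by their labels, and they are 4 of the 12 libraries of the series, 2 of KO NPC and 2 of WT NPC. The KO cells carry the label CHD8_KO, which the design text gives as CHD8-/-, and the WT cells carry no altered allele by their labels. All NPC were obtained by differentiating embryonic stem cells (ESC), which had been kept in 2i, a medium with inhibitors that hold the cells in a naive pluripotent state. Heterozygous (HET, CHD8+/-) NPC and the KO, HET and WT ESC, with 2 libraries a group, were used in the same fit and to set values side by side. Neither the number of cell lines per genotype nor the origin of replicates in separate cultures is named by the labels. The p-values therefore cover only how far these libraries differ among themselves, a spread that may be technical.

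CHD8 is an ATP-dependent chromatin remodeller of the chromodomain helicase family that binds the promoters of many active genes. It is also known as a negative regulator of Wnt and β-catenin signalling, and loss of 1 copy in people is among the recurrent genetic causes of autism, often with a large head. Neural progenitors, the dividing cells from which neurons and glia arise, are a cell type in which its loss has been studied for that reason. This is background and not a result of these libraries.

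The files list 55419 transcripts by UCSC-style identifiers without gene names, and 0 of them matched the gene tables used here. Chd8 itself, the markers of neural progenitors and gene pathways were therefore not examined, and neither the genotype labels nor the cell type could be checked against the RNA. Transcripts are described by size and direction of change, abundance and position in the deposited row order. The total of estimated counts was 9089955 and 10813941 in the KO NPC libraries and 12392099 and 13150215 in the WT NPC libraries. A single transcript held 10.1% to 13.3% of the counts in each of these 4 libraries. Across the 30021 tested transcripts, log2 CPM (CPM being counts scaled to the size of the library) correlated at r = 0.878 between the KO replicates and 0.885 between the WT replicates, against 0.846 to 0.869 between a KO and a WT library. These correlations describe the libraries, since transcripts are not independent replicates. In a bulk library a smaller number of cells with a transcript and a lower level per cell cannot be told apart.

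By edgeR few transcripts differed past the threshold between KO and WT NPC, and the lower ones were the larger group. Of the 30021 transcripts tested, 64 were called (edgeR quasi-likelihood test over all 12 libraries, Benjamini-Hochberg adjusted p under 0.05), which is 0.213%. In KO NPC 23 were higher (0.0766%) and 41 were lower (0.137%). The adjusted p of the calls ran from 0.00954 to 0.0481 for the higher and from 0.0145 to 0.0486 for the lower transcripts (edgeR), and it lay above 0.04 for 15 and 32 of them. At an unadjusted p under 0.05, 1757 were higher and 2042 lower, 12.7% of those tested. Both the number of calls and their balance differed between tools. DESeq2 called 1101 higher and 1141 lower of the 25946 transcripts to which it gave an adjusted p. Limma on deposited TPM values called 84 higher and 230 lower of 30021, with the median of all transcripts at -0.17 on its log2 scale. The edgeR count also rested on each library. Leaving out KO NPC replicate 1 gave 0 calls and leaving out replicate 2 gave 4. Leaving out WT NPC replicate 1 gave 0 calls and leaving out replicate 2 gave 7. In the fits with 0 calls, 2486 and 2615 transcripts had an unadjusted p under 0.05. Fits of only the 6 NPC libraries, or only the 4 of KO and WT NPC, also gave 0 calls, with 4313 and 4258 transcripts at an unadjusted p under 0.05.

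Most changes that passed were at least 2-fold, and 14 of the 64 were smaller. The higher transcripts had a median log2 fold change of 1.51 and a range of 0.93 to 4.21. Among the 23, 2 changed less than 2-fold, 11 between 2-fold and 4-fold and 10 more than 4-fold. Of the 41 lower transcripts, 7 had no counts in either KO library. The other 34 fell by 0.82 to 2.46 on the log2 scale, with a median of 1.11, and 12 of them fell less than 2-fold, 17 between 2-fold and 4-fold and 5 more than 4-fold. The 23 higher transcripts together took 5836 and 5569 CPM in the KO libraries, against 2412 and 2458 CPM in the WT libraries. The 41 lower transcripts together took 1894 and 2112 CPM in KO and 4394 and 4701 CPM in WT. Both sums lay well apart between genotypes, as the choice of the transcripts fixes.

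Calls became more frequent with abundance. By mean CPM over the 4 libraries, 0.0329% of 6075 transcripts under 1 CPM were called, 0.0619% of 9686 from 1 to 5 CPM and 0.104% of 3840 from 5 to 10 CPM. The share was 0.377% of 7170 from 10 to 50 CPM, 0.709% of 2680 from 50 to 200 CPM and 1.05% of 570 at 200 CPM and over. The share at an unadjusted p under 0.05 rose in the same order, from 4.99% to 33.5%. The smallest called change (log2) was 1.51 from 1 to 5 CPM, 2.54 from 5 to 10 CPM and 0.83, 0.82 and 0.92 in the 3 classes above. The called transcripts had a median of 17.7 TPM (a level per transcript length) for the higher and 25.1 TPM for the lower, against 3.32 TPM for all tested. Their median lengths were 3244 and 3091 bases, against 2792 bases.

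**Figure D1:**
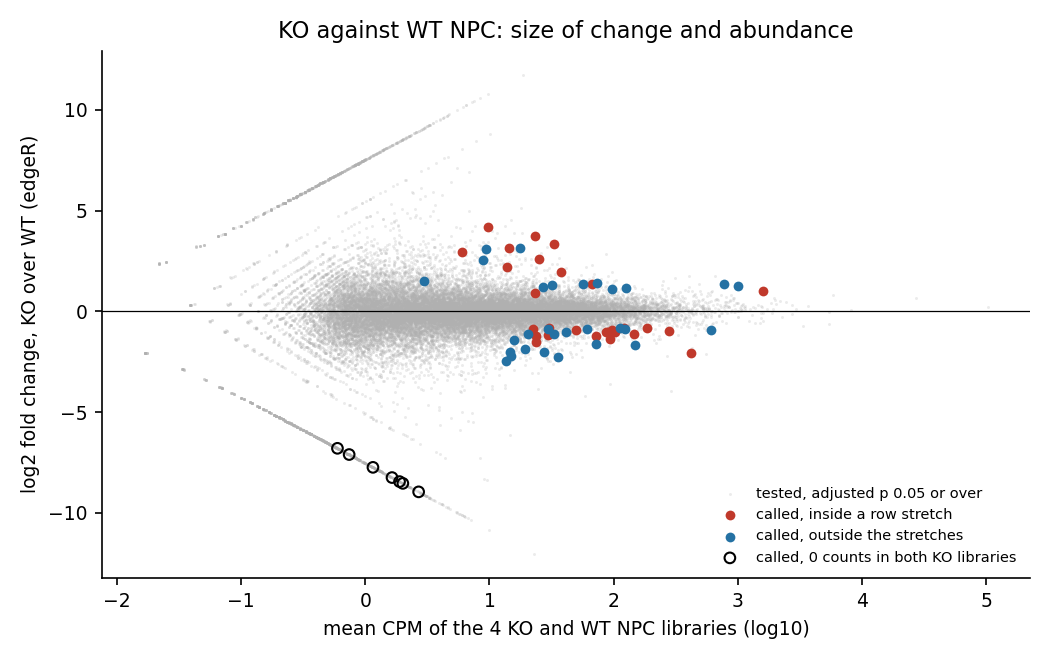
Each point is a tested transcript, with the mean CPM of the 4 KO and WT NPC libraries on a log10 scale (x axis) against the fitted log2 fold change of KO over WT (y axis). Coloured points are calls above 0 in KO, and the 7 rings are calls with 0 counts in both KO libraries, whose fitted fold change depends on the prior count. The smallest called change from 50 to 200 CPM is 0.82, and transcripts at 0 in all 4 libraries are not drawn.

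The same classes were compared between replicates. Under 1 CPM the median absolute log2 difference was 0.737 to 0.853 in the 4 pairings of a KO with a WT library, against 0.677 between the KO replicates and 0.679 between the WT replicates. From 50 to 200 CPM it was 0.256 to 0.325 between KO and WT, and 0.15 and 0.152 between replicates. Differences past 2-fold in that class were found for 4.25% to 7.72% of transcripts between a KO and a WT library, against 1.12% between the KO replicates and 1.42% between the WT replicates. Among transcripts under 1 CPM these shares were 42.3% to 45.3% between KO and WT, against 41.3% and 39.2% between replicates. Under 1 CPM the genotypes thus differed by little more than the replicates did.

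The transcripts named here are the 2 largest rises and the 2 largest falls among calls with a mean of at least 5 CPM and no overlap between the genotypes. Further identifiers are not printed, since they carry no gene name. The transcript uc007ulo.1, of 3244 bases, stood at 23.3 and 13.5 CPM in KO NPC, against 0.629 and 1.33 CPM in WT NPC. Its mean was 18.4 ± 6.93 CPM in KO and 0.982 ± 0.499 CPM in WT (SD, n = 2 each). It rose by 4.21 on the log2 scale (SE 0.481, adjusted p = 0.0385 by edgeR). Both KO libraries lay above both WT libraries, and the WT values rest on 9 and 20 counts. The HET NPC libraries, at 4.9 and 6.15 CPM, lay between the other genotypes. In ESC it had 14.5 and 21 CPM in KO, against 4.86 and 3.52 CPM in WT.

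The transcript uc007pbc.2, of 3579 bases, stood at 41.3 and 45.6 CPM in KO NPC, against 2.45 and 4.07 CPM in WT NPC. It rose by 3.73 on the log2 scale (SE 0.439, adjusted p = 0.0417 by edgeR), and the groups did not overlap. HET NPC, at 38.2 and 31.3 CPM, was close to KO. Its pattern in ESC was alike, with 55.5 and 72.8 CPM in KO and 2.61 and 1.03 CPM in WT. In ESC the HET libraries stood at 16.8 and 28.3 CPM, between the other genotypes. On the TPM scale, its level in NPC was 20.1 and 21.4 in KO and 1.38 and 2.19 in WT.

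The transcript uc011wws.1, of 2541 bases, had 3.49 and 4.86 CPM in KO NPC, against 25.7 and 20.7 CPM in WT NPC. Both KO libraries lay below both WT libraries, and the transcript fell by 2.46 on the log2 scale (SE 0.311, adjusted p = 0.042 by edgeR). HET NPC stood between, at 11.8 and 6.33 CPM. In ESC it had 65.1 and 66.2 CPM in KO and 75 and 97.3 CPM in WT, where the fitted log2 fold change of -0.39 did not pass (edgeR adjusted p = 0.58). The transcript uc009uzd.1, of 1801 bases, had 12.2 and 12.2 CPM in KO NPC, against 61.8 and 55.8 CPM in WT NPC. It fell by 2.27 on the log2 scale (SE 0.175, adjusted p = 0.0145 by edgeR), with little spread between the KO replicates. HET NPC, at 54.3 and 49.9 CPM, lay just under WT. In ESC its levels were 60.4 and 57.6 CPM in KO, against 80.9 and 116 CPM in WT, without overlap but also without a call (edgeR adjusted p = 0.0806). The KO effect of none of the 64 calls differed between NPC and ESC past the threshold (edgeR interaction test, adjusted p of at least 0.119). Over all tested transcripts that test called 1. In the fit of the 6 NPC libraries the 4 named transcripts kept their log2 fold changes within 0.01 and their adjusted p was 0.114 to 0.117, so none was called (edgeR). Without KO NPC replicate 1 none was called either, with an adjusted p of 0.0776 for uc009uzd.1 and 0.16 to 0.23 for the others (edgeR).

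**Figure D2:**
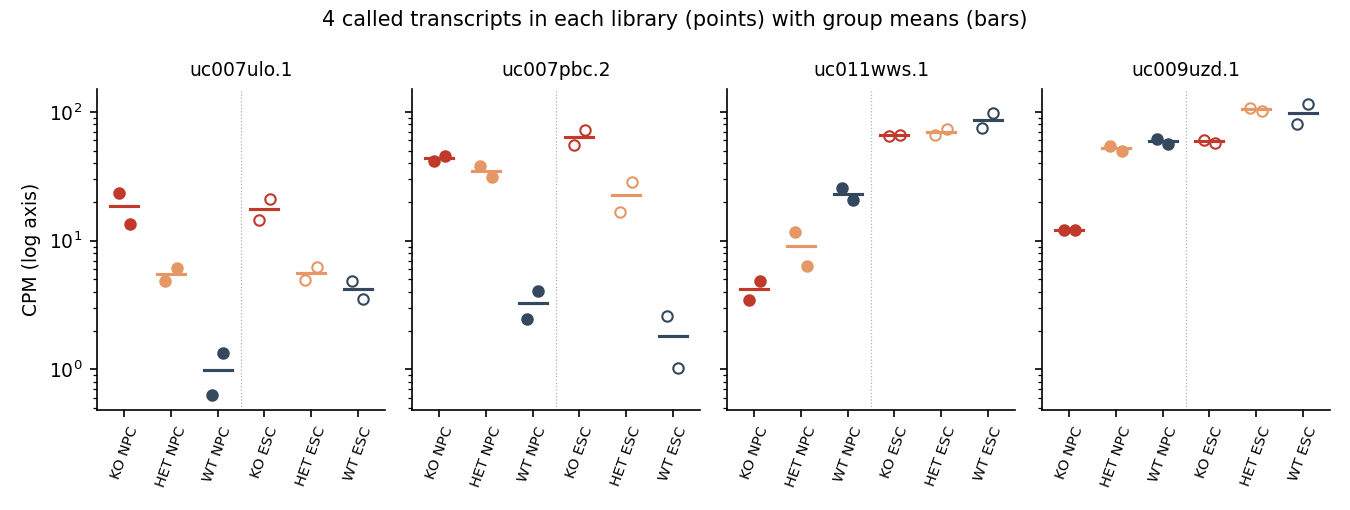
CPM on a log axis (y) of 4 called transcripts in every library, with NPC as filled and ESC as open points and a bar at each group's mean (n = 2). In NPC, KO lies above WT for uc007ulo.1 and uc007pbc.2 and below it for uc011wws.1 and uc009uzd.1, and HET lies near KO for uc007pbc.2 and near WT for uc009uzd.1.

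Some transcripts had no counts in 1 genotype, and few of them were called. In 300 transcripts, 0.999% of those tested, both KO NPC libraries were at 0 and both WT NPC libraries held at least 10 counts. The reverse was found for 153, or 0.51%. Both KO libraries held fewer counts in total than either WT library, and the part of depth in this imbalance was not tested. Of these, edgeR called 7 and 0. The 7 called ones had 0 counts in both KO libraries and 13 to 88 counts, or 0.868 to 6.15 CPM, in the WT libraries. Set against a floor of 3 counts over the KO group, which is 0.139 CPM, they were at least 8.57-fold to at least 38.6-fold lower in KO. They were present in all HET NPC libraries, at 2.26 to 7.25 CPM. Among the 300, 65 had at least 10 counts in both HET libraries and 65 had none in either. Estimated counts share reads among similar transcripts, so a 0 for 1 isoform does not give the level of its gene.

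A look at neighbouring rows separates changes of a single row from changes shared nearby. For each call the estimated counts of the 3 rows before and the 3 rows after it were summed. The neighbours of the 7 transcripts lost in KO had a median log2 ratio of 0.04 (KO over WT, with 0.5 CPM added), where the transcripts themselves had -2.92. For the 23 higher calls the neighbours had a median of 0.49 and were higher in KO for 20. For the 34 other lower calls the neighbours had a median of -0.50 and were lower in KO for 27. Over all tested transcripts the neighbours were higher in KO for 50.7% and lower for 49.3%. Beside transcripts that were themselves above WT in KO they were higher for 56.1%, and beside those below WT they were lower for 54.3%. Some calls are each other's neighbours, since 5 higher and 2 lower calls had a call of the same direction within 3 rows. Without these, the neighbours lay in the direction of the call for 15 of 18 higher and 28 of 39 lower calls. Among the named transcripts, the neighbours of uc007pbc.2 summed to 12.8 and 19.6 CPM in KO, against 1.61 and 3.15 CPM in WT, and thus differed in its direction. Those of uc007ulo.1 summed to 57 and 53.7 CPM in KO and 54.3 and 53.9 CPM in WT, with both WT values inside the range of the KO values. Around uc011wws.1, which fell, the neighbours were higher in KO, at 3.83 and 2.4 CPM, against 1.49 and 0.737 CPM in WT. Around uc009uzd.1 they were lower with it, at 9.72 and 6.92 CPM in KO and 26.8 and 26.8 CPM in WT.

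Shared shifts also ran over much longer parts of the row order. Tested transcripts of at least 2 CPM were divided in row order into 199 blocks of 100, and each block was given its median log2 difference less that of the middle block. The term stretch is used for 2 or more adjoining blocks that all lay past 0.25 on the same side. The files do not state what the row order follows. In KO against WT NPC the block medians had an SD of 0.194, and in the 4 single pairings of a KO with a WT library SDs of 0.183 to 0.208. Between the KO replicates the SD was 0.047 and between the WT replicates 0.0728. With 2 libraries a group, the smallest p of an exact two-sided permutation test of 1 block is 0.33, so blocks are described without a test.

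The scan found 6 stretches in KO against WT NPC, in 22 blocks, of which 4 stretches were lower and 2 higher. Blocks past 0.25 numbered 7 in the higher and 19 in the lower direction, where the KO replicates gave 0 and the WT replicates 1. The longest stretch, blocks 171 to 180 with 1470 tested transcripts, had a median of -0.49, a fold of 0.711. It lay between -0.46 and -0.49 in the 4 pairings. Of its transcripts of at least 2 CPM, 60.1% were lower in KO without overlap, against 24.6% of all tested and 27.2% of those in blocks. The same libraries chose the stretches, which fixes a raised share in advance. In KO against WT ESC, which did not choose this stretch, 54.9% were lower without overlap, against 20.7% of all tested. Blocks 132 and 133 were the most lowered, at -0.64 (-0.63 to -0.73 over the pairings), with 73.5% lower without overlap in NPC and 42.5% in ESC. Blocks 58 and 59 stood at -0.43 (-0.42 to -0.45) and blocks 148 to 151 at -0.27 (-0.20 to -0.35).

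The most raised stretch was that of blocks 43 and 44, at 0.78 or 1.72-fold (0.69 to 0.87 over the pairings). In it 62.5% of transcripts were higher in KO without overlap, against 23.0% of all tested and 26.5% of those in blocks. In ESC, which did not choose this stretch, the share was 65%, against 22.1% of all tested. Blocks 145 and 146 stood at 0.40 (0.34 to 0.48). The shifts of a stretch also appeared in libraries that had not defined it. Replicate 1 of KO against replicate 1 of WT defined 6 stretches, and all 6 kept their direction in replicate 2 of KO against replicate 2 of WT. There blocks 43 and 44 stood at 0.64, blocks 171 to 180 at -0.49 and blocks 148 to 151, the smallest shift, at -0.20. In reverse, replicate 2 of KO against replicate 2 of WT defined 5 stretches, which kept their direction in the pair of replicate 1. Blocks 148 to 151 were not among those 5.

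**Figure D3:**
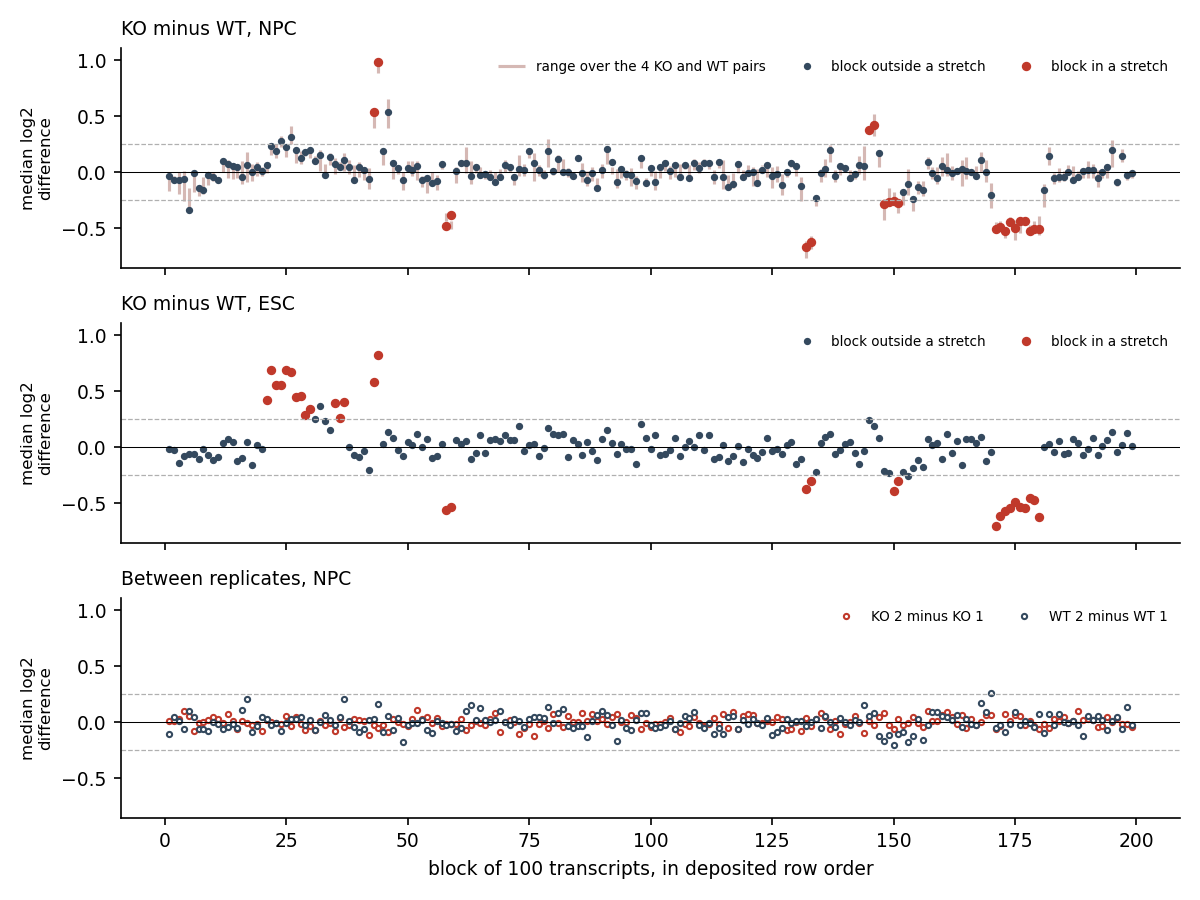
Median log2 difference (y axis) of each block of 100 transcripts in deposited row order (x axis), for KO minus WT in NPC with the range over the 4 pairs of libraries, KO minus WT in ESC, and the differences between NPC replicates. Dashed lines mark the limit of 0.25. Red blocks form stretches, 22 in NPC and 31 in ESC, while 1 block of the replicate differences passes the limit.

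The ESC libraries, which share none with NPC, showed most of the same shifts. Of the 22 stretch blocks of NPC, 18 also lay in stretches of KO against WT ESC, all in the same direction, which is 81.8% of the NPC blocks and 58.1% of the 31 ESC blocks. Over the 199 blocks the medians of the cell types correlated at r = 0.824 (rho = 0.694), as a description, since the blocks share libraries and neighbours. The longest stretch stood at -0.54 in KO ESC and blocks 43 and 44 at 0.74. Blocks 132 and 133 stood at -0.33 in KO ESC, beside -0.64 in KO NPC, and blocks 145 and 146 at 0.20, under the limit. Blocks 21 to 30 differed the other way, since they were raised by 0.51 in KO ESC and by 0.20 in KO NPC. Whether a shift differs between the cell types was not tested.

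HET NPC shared some shifts and not others. Blocks 43 and 44 stood at 0.78 in KO and 0.69 in HET, and blocks 58 and 59 at -0.43 and -0.45. The longest stretch stood at -0.49 in KO and -0.06 in HET, and blocks 145 and 146 at 0.40 and 0.02. In blocks 148 to 151 the shifts were opposite, at -0.27 in KO and 0.19 in HET. The WT replicates themselves stood apart there, at 0.07 and -0.07 around their mean. The KO and HET values are set against the same WT libraries, so they are not independent of each other.

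The stretches held a large part of the calls. Of the 64 calls, 30 lay in the stretches of NPC, 46.9% (exact binomial 95% interval 34.3% to 59.8%, counting error only), where 11% of the tested transcripts lay. The interval takes the calls as independent and is likely too narrow. A call of the same direction lay within 100 rows of 11 of the 23 higher and 17 of the 41 lower calls. The NPC stretches come from the same libraries as the calls. In the stretches defined in ESC there were also 30, against 15.4% of the tested transcripts. Of the 23 higher calls 11 lay in NPC stretches, 10 of them in raised ones, and of the 41 lower calls 19, all in lowered ones. The longest stretch held 10 lower calls, blocks 58 and 59 held 4, and blocks 132 and 133 held 4. Other lists gave other shares. Of the transcripts at an unadjusted p under 0.05, 19.9% lay in NPC stretches, of the 2242 calls by DESeq2 22.9% and of the 84 calls under upper-quartile scaling 51.2%. It was 39.1% among the 483 calls that edgeR made over transcripts of at least 10 CPM, where 11.5% of those tested lay in stretches.

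The shift of its block was set beside the size of each called change, as a description. Inside the stretches the median call changed by 1.23 on the log2 scale, and the block shift in its direction had a median of 0.52. The shift was a median of 42.7% of the log2 fold change there, and in 9 of the 30 it was at least 50%. Outside the stretches it was a median of 1.8%. The block shift ran against the direction of the call for 10 of the 64 calls, 9 of them outside the stretches. For uc007pbc.2, the block shift of 0.98 stood beside a log2 fold change of 3.73. For uc007ulo.1, which rose by 4.21, the block was lowered, with a shift of -0.48. The shifts of uc011wws.1 and uc009uzd.1 were -0.04 and -0.01, although the closest rows of uc009uzd.1 were lower with it. Over all transcripts of at least 2 CPM, 4.42% of the variance of the KO minus WT difference lay between blocks, against 0.695% and 0.922% for the differences between KO and WT replicates. At 10 CPM and over it was 11.6%, against 1.27% and 2.46%. These are unlike measures, since KO minus WT takes means of 2 libraries and a replicate difference takes single libraries. Averaging alone favours a larger share for KO minus WT.

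With the shift of each block removed from the fit, edgeR called 5 transcripts, 2 higher and 3 lower, all among the 64. Of these 1 lay inside and 4 outside the stretches, so 29 of the 30 calls inside lost their call, and so did 30 of the 34 outside. At an unadjusted p under 0.05 the number was 3345, against 3799 before. The direction was kept by 63 of the 64. Outside the stretches the changes kept their size, with a median log2 change of 1.42 in the direction of the call after removal and 1.47 before, and a median adjusted p of 0.0727 (edgeR). Why calls were lost there was not tested. Inside the stretches the median was 0.62 after removal and 1.23 before. A fit without the transcripts of the stretches also called 5.

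Block 44 was chosen here as the block with the most higher calls, while block 43 of the same stretch held none. Block 44, with 143 of the 30021 tested transcripts, held 10 of the 23 higher calls, 43.5%, within 220 neighbouring rows, and no lower call. Of its 100 transcripts of at least 2 CPM, 71 were higher in KO without overlap, 3 were lower, and 41 were at least 2-fold higher without overlap. The last of these held for 6.76% of all tested transcripts and for 5.45% of the 19918 in blocks. The 10 calls had log2 fold changes of 0.93 to 3.73, with a median of 2.4. The remaining transcripts of at least 2 CPM had a median of 0.92, so the block was raised beyond its calls. In bins of 20 transcripts over blocks 43 to 45 the shift began and ended within a few bins. It was -0.07 and 0.00 in the first bins of block 43, 0.71 to 1.10 in the next 8 bins, 0.42 in the first bin of block 45 and 0.03 to 0.21 in the following ones. A single bin held 7 of the calls, and there the ESC libraries stood at 2.12, against 1.08 in NPC. All 10 calls were higher in KO than WT ESC without overlap, and 9 were called there too, in the same fit with a shared estimate of spread. Past these bins, block 46 was raised again, at 0.54 in KO NPC (0.39 to 0.66 over the pairings). It stood at 0.49 in HET NPC and 0.14 in KO ESC, and as a single block it forms no stretch.

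**Figure D4:**
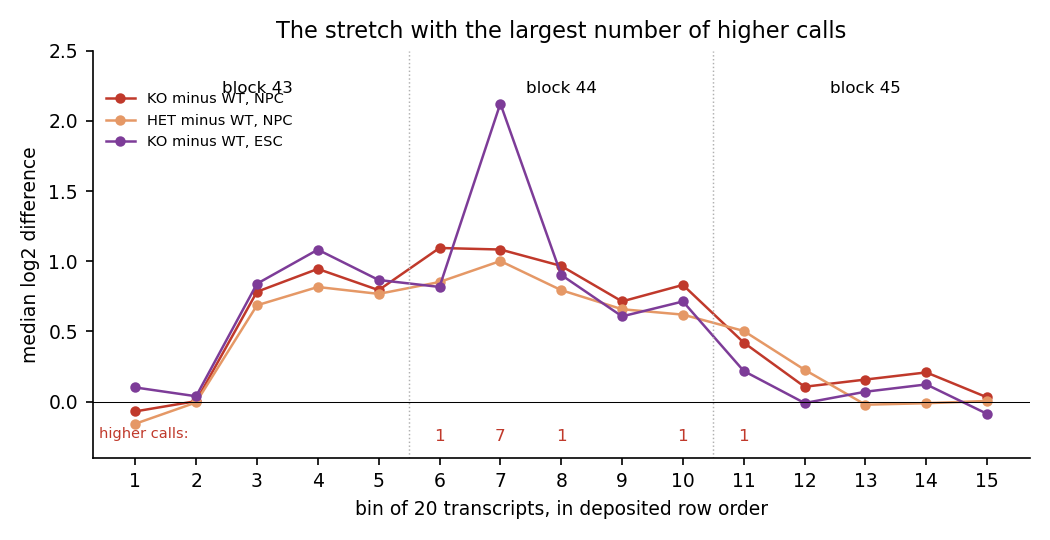
Median log2 difference (y axis) in bins of 20 neighbouring transcripts over blocks 43 to 45 (x axis), for KO minus WT NPC, HET minus WT NPC and KO minus WT ESC. The red numbers count higher calls of KO against WT NPC. The 3 lines rise together at the third bin and fall at bin 11, and the ESC line alone reaches 2.12 in the bin with 7 calls.

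The 64 calls were then set beside the ESC libraries. Of the 23 higher calls, 18 were higher in KO than WT ESC without overlap, against 22.1% of all tested transcripts, and 12 were called there, against 0.716%. Of the 41 lower calls, 33 were lower in KO than WT ESC without overlap, against 20.7%, and 11 were called, against 0.490%. Outside the stretches of NPC these counts were 7 without overlap and 3 called among the 12 higher calls, and 15 and 3 among the 22 lower ones. The NPC and ESC tests come from the same fit and share 1 estimate of spread per transcript. The calls were also more abundant, at medians of 26.9 CPM (higher) and 33.1 CPM (lower), against 4.38 CPM for all tested. Both favour a call in ESC too, and shares at like spread and abundance were not computed. The median KO minus WT difference in ESC was 2.75 (log2) for higher calls inside the stretches and 0.27 for those outside. Of the 11 higher calls inside, 10 lay in block 44, so the first median mostly describes that block. For lower calls it was -0.69 inside and -0.34 outside.

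**Figure D5:**
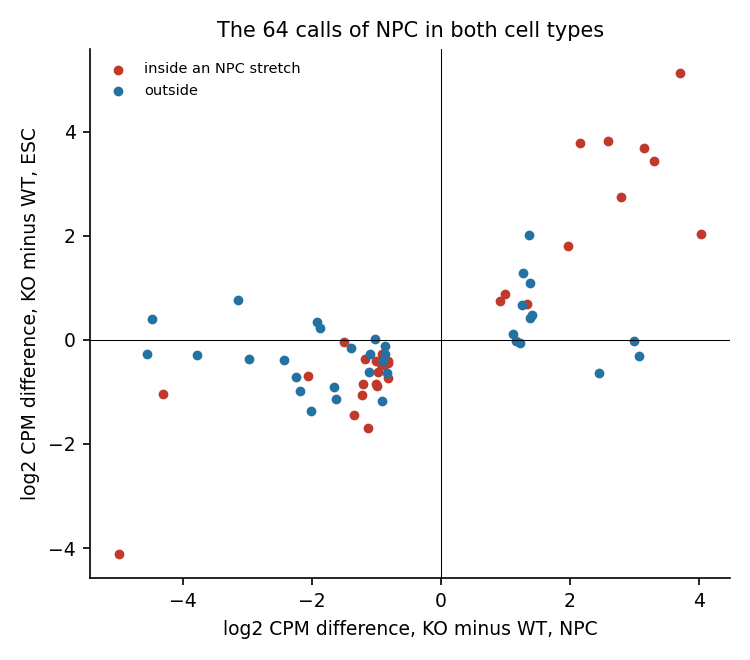
Difference in mean log2 CPM (prior count 2) between KO and WT for the 64 calls, in NPC (x axis) and in ESC (y axis). Of the 23 higher calls, 18 lie above 0 in ESC, and of the 41 lower calls 36 lie below 0. The points above 2.5 on the ESC axis are all in block 44, inside a stretch.

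HET NPC lay between the other genotypes for most calls. By group means, HET was between KO and WT for 21 of the 23 higher calls and past KO for the other 2. For the 41 lower calls it was between for 34, past KO for 1 and above WT for 6. All of those 6 were among the 7 with no counts in either KO library. The median differences from WT, in log2 CPM, were 1.41 in KO and 0.94 in HET for the higher calls. For the lower ones they were -1.21 in KO and -0.40 in HET. The KO and WT libraries chose the calls, which favours HET values between them. The share with HET between over all tested transcripts was not computed. HET values are therefore given beside those of KO and not as a separate result.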

How the data were processed

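RNA libraries were stranded and made from total RNA depleted of ribosomal RNA, per the labels' protocols. The submitters' processing notes name cutadapt 1.16, the mouse build mm9 and kallisto, its version not given in the sources used here. Per the file headers, the deposited files hold an estimated count (expected count, in which reads shared by transcripts are divided) and a TPM value (scaled within the library by the authors) for each transcript, with its length.

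Of the rows, 526 in 207 sets were equal to 2 decimals in every library and above 0 in at least 3, and were merged, which left 55100 features. Counts were rounded, kept if filterByExpr passed them (minimum count 10), and fitted after TMM scaling in a single model of the 6 groups and 12 libraries (edgeR 4.0.16, R 4.3.3, glmQLFit with robust moderation, two-sided). The common dispersion was 0.35, with 6 residual degrees of freedom. The SE was taken as log2 fold change over the root of F. CPM uses TMM library sizes, and log2 CPM a prior count of 2. DESeq2 1.42.0 and limma 3.58.1, on log2(TPM + 0.5), were alternatives. The code was tested on simulated data with a lower dispersion than these data, which checks the code and not the calls. Differences of replicate 1 and 2 correlated at r = -0.078 between KO and WT NPC, so the numbers were not taken as pairs. The transcripts, lists and limits were chosen with earlier results of these data known. The rule for named transcripts kept calls of at least 5 CPM on average whose groups did not overlap, and took the 2 largest rises and falls. Intervals and floors cover counting error only, and intervals take calls as independent.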

Additional observations from a re-analysis of the deposited data

How the results depend on the processing

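The 64 calls numbered 54 to 84 with RLE or upper-quartile scaling, no filter, no robust moderation, no merging, without the most abundant transcript and after thinning to the smallest library. They were 2242 of 25946 tested by DESeq2, 483 of 10437 over transcripts of at least 10 CPM and 314 of 30021 by limma. The count was 0 in fits of the 6 NPC libraries or of the 4 KO and WT NPC libraries, and 0 with the replicate block, where 4313, 4258 and 3756 transcripts had an unadjusted p under 0.05. It was 5 with row-block shifts removed and 5 without transcripts in stretches, and 0 to 7 when a KO or WT NPC library was left out. Why the counts differ between fits was not tested. In every fit in which they were tested the 4 named transcripts kept their direction, but each missed the threshold in 6 to 9 of 17 to 19 alternatives, with adjusted p up to 0.16 to 0.23 (edgeR). The SD of block medians was 0.211 with blocks of 50 and 0.208 with a minimum of 10 CPM, and 0.187 to 0.205 without 1 library. The share of the same 64 calls in stretches was 45.3% to 56.2% under 12 other definitions of a stretch, against 8.91% to 15.4% of the tested transcripts. With the stretches kept, other fits of all 12 libraries that tested stretches and kept row shifts gave 22.9% to 51.2% where any calls were made. Of the transcripts they tested, 7.59% to 11.5% lay in stretches. Fits that left out a library made too few calls to give a share. Genotype labels and cell type were not checked against marker genes, and transcripts under 1 CPM had replicate differences nearly as large as those between genotypes.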
